A study of Mus musculus with 2 samples.

Results

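The cells described here are B cells found in periosteal preparations of mouse long bones. They carried transcripts of Ms4a1, which encodes the B cell surface protein CD20. Whether they lay in the periosteum or came over from marrow was not tested. They were chosen by their own counts. A cell was kept when it had at least 1 unique molecular identifier (UMI, a tag that marks 1 captured transcript) of Cd79a, at least 2 UMIs of Ms4a1, at least 2 UMIs of H2-Aa, and 0 UMIs of Mki67 and Top2a. Of the 9169 cells that had at least 500 genes, at least 500 UMIs, and at most 10% mitochondrial UMIs, 175 met these limits, 91 of 6276 in library 1 and 84 of 2893 in library 2. They are called Ms4a1 B cells below. Their share of all kept cells was 1.45% in library 1 (95% exact binomial interval 1.17 to 1.78) and 2.90% in library 2 (2.32 to 3.58), and their share of cells with a Cd79a UMI was 2.89% (2.33 to 3.53) and 5.94% (4.77 to 7.31). These intervals, like all others here, cover counting error only.

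Single-cell RNA was measured in 2 libraries of a single condition. Both came from the femurs and tibias of wild-type C57BL6 mice at 4 weeks of age. Periosteal tissue was peeled off the bones, digested with collagenase, and sorted by staining for CD45, CD31, Ter-119, and DAPI to enrich cells that are neither blood cells nor endothelium. The labels give neither a treatment nor the number of mice behind each library. Every p-value below therefore rests only on the spread between these 2 libraries, in level or in the difference between cell groups, and that spread may be technical. Library 1 held 9932 barcodes and 100808649 UMIs, and library 2 held 3659 barcodes and 33306452 UMIs. The kept cells of the libraries shared 7 barcode sequences, none of them belonging to a Ms4a1 B cell.

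B cells are made in bone marrow. Pro-B and pre-B cells rearrange their immunoglobulin genes with the RAG recombinase and display a provisional receptor, the pre-B receptor, in which a surrogate light chain built from VpreB and lambda-5 stands in for the true light chain. Once a light chain is made, the cell shows IgM, loses the recombinase, and gains IgD, CD20, MHC class II, and the chemokine receptors that steer it out of the marrow and into the follicles of spleen and lymph nodes.

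The UMIs per cell of the Ms4a1 B cells ranged from 1420 to 18787 in library 1 (median 3641) and from 2210 to 11577 in library 2 (median 3435), and the median numbers of genes were 1542 and 1441. Mitochondrial genes took a median of 5.85% of the UMIs in library 1 and 2.32% in library 2. In the gate genes, which are given as a description only, the medians per cell were 12 and 12 UMIs of Cd79a, 6 and 7 of Ms4a1, and 6 and 6.5 of H2-Aa. Of the markers named for these cells, Ms4a1 and H2-Aa were set by the gate and cannot check the label, and Ccr7 and Fcmr, which the gate did not use, are described below. Cells of an immature and of a mature stage were not separated by the choice, so no stage is assigned to a cell.

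They were compared with the other cells that had a Cd79a UMI and no Ms4a1 UMI, 2572 in library 1 and 1107 in library 2. Mki67 or Top2a, which mark dividing cells, was found in 48.8% (46.8 to 50.7) and 33.4% (30.6 to 36.3) of these, whereas the gate had removed all such cells from the Ms4a1 B cells. The main comparison was therefore with the 1318 and 737 Ms4a1-free cells that also lacked both cycle genes. Their median depth was close to that of the Ms4a1 B cells, 3316 and 3779 UMIs. The UMIs of each cell group were summed in each library (425008 and 332846 for the Ms4a1 B cells, 5354320 and 3666518 for the non-cycling Ms4a1-free cells), each gene's sum was scaled to 1000000 UMIs per group (its level in CPM), and the 4 sums were compared with edgeR's quasi-likelihood test. P-values were adjusted by the Benjamini-Hochberg method over all genes tested. Since the groups were picked by measured transcripts, a difference between them is a difference between cells so picked.

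Of 9345 genes tested, 70 were higher in Ms4a1 B cells and 66 were lower at an adjusted p under 0.05, which is 0.749% and 0.706% of the genes. Of the 70 genes, 9 belong to the MHC class II list, which moves with the gate gene H2-Aa, and nothing is read from their calls here. With the library as a block, a fit that pairs the sums of 1 library, 186 genes were higher (1.99%) and 226 lower (2.42%), and these included all 70 and all 66. The p-values of that fit measure how far the difference between the groups varied between the libraries. Fold changes and their SEs are those of the fit without the block throughout. The median log2 fold change of all genes was -0.05.

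The genes of follicular maturation, those that a B cell gains on the way to the follicle, included 4 that were higher in Ms4a1 B cells, Ccr7, Fcmr, Fcer2a, and Ltb. Ccr7, the receptor for CCL19 and CCL21 that draws lymphocytes toward T cell zones, (chr11:99144196-99155077, minus strand, mm10) stood at 633 and 1172 CPM in the Ms4a1 B cells of libraries 1 and 2 and at 123 and 81.8 CPM in the non-cycling Ms4a1-free cells. Fcmr, which encodes the Fc receptor for IgM (chr1:130865669-130880791, plus strand), stood at 369 and 571 CPM against 41.8 and 32.2 CPM. Both genes were higher in Ms4a1 B cells in each library, and the groups did not overlap. The log2 fold change was 3.18 ± 0.45 (SE, n = 2 libraries) for Ccr7 (adjusted p = 0.0261, edgeR) and 3.71 ± 0.41 for Fcmr (adjusted p = 0.0148, edgeR).

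Fcer2a, which encodes CD23, the low-affinity IgE receptor of follicular B cells, was rare in both groups, with 49.4 and 30.0 CPM in Ms4a1 B cells against 0.747 and 1.64 CPM. It was nonetheless higher by 5.12 ± 0.63 on the log2 scale (adjusted p = 0.0233, edgeR). Ltb, whose product lymphotoxin beta helps organize lymphoid tissue, was at 499 and 598 CPM against 127 and 130 CPM. Its log2 fold change was 2.15 ± 0.32 (adjusted p = 0.0323, edgeR). In all, 4 of the 16 genes of this list were higher and 0 lower, with a median log2 fold change of 1.84, and 8 were higher with the library as a block. Cxcr5, the receptor for the follicular chemokine CXCL13, stood at 49.4 and 27.0 CPM against 2.24 and 5.46 CPM and missed the threshold without the block (log2 fold change 3.41 ± 0.62, adjusted p = 0.0516) and passed with it (adjusted p = 0.0405). Klf2, a transcription factor that governs egress and homing, was at 303 and 192 CPM against 316 and 329 CPM (log2 fold change -0.32 ± 0.34, adjusted p = 0.792). Without H2-Aa in the gate, Ccr7 and Ltb missed the threshold (log2 fold changes 2.75 and 1.54, adjusted p = 0.0690 and 0.0983, edgeR), and Fcmr and Fcer2a (3.57 and 4.30) lay on either side of it, with an adjusted p of 0.0502 for both when H2-Aa was kept out of the genes tested and of 0.0488 for both when it was among them, in 2 fits of the same cells. With the library as a block and H2-Aa tested, 10 of the 15 genes that could be tested in those cells were higher, against 3.82% of all genes, Ccr7 and Ltb included (adjusted p = 0.0207 and 0.0138). In the gate as first given, Ccr7 and Ltb also lost their calls with no filter on low counts (adjusted p = 0.0582 and 0.0680) and with at most 5% mitochondrial UMIs (0.0541 and 0.0806).

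**Figure D1:**
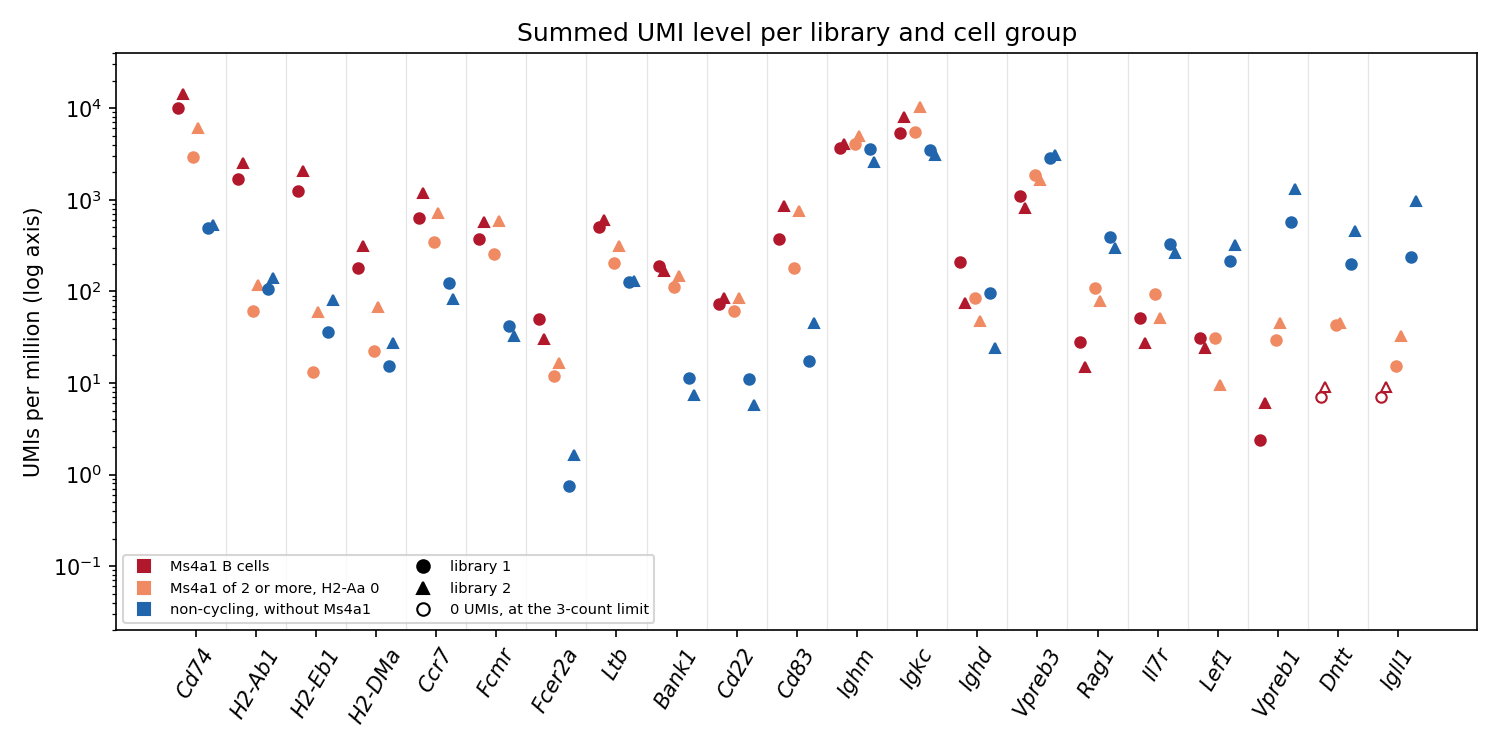
Summed level of selected genes (CPM, log axis) in Ms4a1 B cells, in Ms4a1 cells without H2-Aa, and in non-cycling cells without Ms4a1, with circles for library 1, triangles for library 2, and open symbols at the limit of 3 counts where no UMI was found. Ccr7 reached 633 and 1172 CPM and Fcmr 369 and 571 CPM in Ms4a1 B cells, above both libraries of the non-cycling Ms4a1-free cells.

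Of the 16 genes of the B cell receptor and its coreceptors, 3 were called higher and 0 lower. Cd79b, the signaling partner of Cd79a, was at 2031 and 2656 CPM against 1878 and 2214 CPM (log2 fold change 0.26 ± 0.28, adjusted p = 0.799). The kinases Syk, Lyn, and Btk and the adaptor Blnk did not pass the test either, with log2 fold changes of 0.26, 0.53, 0.38, and -0.67.

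Bank1, Cd22, and Ptpn6 were the genes called. Bank1, a scaffold that ties the receptor to calcium release, was at 188 and 168 CPM against 11.4 and 7.36 CPM. Cd22, an inhibitory coreceptor, was at 72.9 and 84.1 CPM against 11.0 and 5.73 CPM. Ptpn6, the phosphatase SHP-1 that CD22 recruits, was at 329 and 466 CPM against 74.9 and 55.6 CPM. All 3 were higher in each library, by 4.28 ± 0.45, 3.25 ± 0.51, and 2.65 ± 0.39 on the log2 scale (adjusted p = 0.0148, 0.0370, and 0.0300, edgeR), and the median log2 fold change of the list was 0.56. With the block, Blk, a Src-family kinase of B cells, joined them at 221 and 177 CPM against 99.2 and 63.6 CPM (adjusted p = 0.0338). Without H2-Aa in the gate, Bank1 kept its call (adjusted p = 0.0479), Cd22 did not (adjusted p = 0.0566), and Ptpn6 again lay on either side of the threshold (adjusted p = 0.0502 without and 0.0488 with H2-Aa among the genes tested). With the block, 6 of the 16 were higher in those cells, Cd22 (adjusted p = 0.0101) and Ptpn6 (0.00691) among them. Cd22 and Ptpn6 also lost their calls with no filter on low counts (adjusted p = 0.0674 and 0.0591) and with at most 5% mitochondrial UMIs (0.0594 and 0.0926).

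Several genes of the pre-B receptor were at or near 0. Igll1, which encodes lambda-5 of the surrogate light chain (chr16:16860671-16863985, minus strand), had 0 UMIs in the 91 and 84 Ms4a1 B cells and stood at 239 and 965 CPM in the non-cycling Ms4a1-free cells. Set against a floor of 3 UMIs per library, it was at least 33.8-fold and 107-fold lower. Dntt, the polymerase that adds untemplated bases at immunoglobulin joints, also had 0 UMIs against 200 and 461 CPM, at least 28.3-fold and 51.1-fold lower. Both calls passed the test (adjusted p = 0.0261 and 0.0148, edgeR).

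Vpreb1, the other part of the surrogate light chain, had 2.35 and 6.01 CPM against 578 and 1316 CPM (log2 fold change -7.79 ± 0.65, adjusted p = 0.00546). Vpreb2, a near-identical copy with which it can share reads, had 0 UMIs against 62.8 and 179 CPM, at least 8.89-fold and 19.9-fold lower. Rag1, the catalytic part of the recombinase (chr2:101638282-101649501, minus strand), was at 28.2 and 15.02 CPM against 388 and 300 CPM (log2 fold change -3.92 ± 0.46, adjusted p = 0.0176). Il7r, the receptor for the cytokine on which pre-B cells depend, was at 51.8 and 27.0 CPM against 331 and 260 CPM (log2 fold change -2.85 ± 0.44, adjusted p = 0.0350). These 6 were the genes called lower of 8 in the list, with none higher and a median log2 fold change of -5.93, and all 8 were lower with the block. Without H2-Aa in the gate, 3 of the 8 were called lower, or 2 where H2-Aa itself was kept out of the genes tested. With H2-Aa tested, Igll1 lost its call (adjusted p = 0.0503) and Dntt and Vpreb2 kept theirs (adjusted p = 0.0488 and 0.0478). With H2-Aa kept out, Vpreb1 kept its call (log2 fold change -5.36, adjusted p = 0.0479), and Rag1 (-2.36, adjusted p = 0.0584) and Il7r (-2.26, adjusted p = 0.0786) did not. With the block, all 8 were lower in those cells, against 6.3% of all genes. In the gate as first given, the list held 3 of its 6 calls with no filter on low counts. Il7r was among those lost (adjusted p = 0.0591, edgeR). With at most 5% mitochondrial UMIs the list held 5 calls, and Il7r again lost its own (adjusted p = 0.139, edgeR). Vpreb3, a partner of newly made light chains that persists past the pre-B stage, remained at 1094 and 805 CPM against 2825 and 3089 CPM (log2 fold change -1.58 ± 0.29, adjusted p = 0.0502, and 0.0139 with the block).

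Genes of the immature and transitional stages were measured beside these. Of 7 genes in that list, which shares Rag1, Rag2, and Vpreb3 with the pre-B list, Rag1 and Myb were lower and all 7 were lower with the block, with a median log2 fold change of -2.27. Myb, a transcription factor of early B cells, was at 84.7 and 48.1 CPM against 356 and 322 CPM (log2 fold change -2.30 ± 0.40, adjusted p = 0.0485). Without H2-Aa in the gate, none of the 7 was called, Myb included (-1.69, adjusted p = 0.0793), whereas with the block all 7 were lower in those same cells (adjusted p = 0.00618 for Myb). Myb also lost its call with at least 3 Ms4a1 UMIs (0.0647) and with no filter on low counts (0.0782). Cd93, a surface marker of immature and transitional B cells, was at 44.7 and 12.0 CPM against 123 and 78.3 CPM (log2 fold change -1.76 ± 0.60, adjusted p = 0.209, and 0.0321 with the block). Cd24a, a surface protein that falls with maturation, was at 332 and 406 CPM against 626 and 820 CPM (log2 fold change -0.91 ± 0.31, adjusted p = 0.205, and 0.0411 with the block).

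Ighm, the heavy chain of IgM, had a UMI in every Ms4a1 B cell, and in 36.7% and 22.6% of neutrophil and 19.9% and 6.08% of stromal reference cells, in which free RNA is counted. The UMIs of Ighm per Ms4a1 B cell ranged from 2 to 48 in library 1 (median 17) and from 2 to 52 in library 2 (median 15). The summed level of 3649 and 4011 CPM was not told apart from that of the non-cycling Ms4a1-free cells at 3602 and 2594 CPM (log2 fold change 0.35 ± 0.29, adjusted p = 0.712). Ighd, the heavy chain of IgD, which is spliced from the same transcript as IgM in mature B cells, was found in 48 of 91 and 18 of 84 cells. It made up 5.37% of the Ighm and Ighd UMIs in library 1 and 1.84% in library 2, and its level was 207 and 75.1 CPM against 95.1 and 24.3 CPM (log2 fold change 1.26 ± 0.73, adjusted p = 0.526, and 0.0481 with the block). Library 1 was the higher for Ighd in both cell groups. Switched heavy chains were close to absent, with 6 and 4 UMIs in 6 and 2 cells, and Jchain, which joins secreted IgM and IgA, had 0 UMIs in either library.

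Light chains were of both kinds. Igkc, the kappa constant region, was at 5365 and 7983 CPM in Ms4a1 B cells against 3531 and 3044 CPM (log2 fold change 1.07 ± 0.30, adjusted p = 0.151). The lambda constant regions Iglc1, Iglc2, and Iglc3 are near-identical copies whose reads can be shared, so their separate values are uncertain. Iglc1 was at 741 and 1148 CPM against 218 and 289 CPM and was called higher (log2 fold change 1.96 ± 0.35, adjusted p = 0.0485). The call was lost with DESeq2 size factors (adjusted p = 0.0537), without H2-Aa in the gate (0.0772), with at least 5 Cd79a UMIs (0.0843), with no filter on low counts (0.119), with at most 5% mitochondrial UMIs (0.191), and after thinning (0.198). With the block, it was called with H2-Aa in the gate (adjusted p = 0.00961) and without (0.00860). Iglc2 was at 842 and 2151 CPM against 182 and 318 CPM (log2 fold change 2.66 ± 0.51, adjusted p = 0.0572, and 0.00879 with the block). Of the 13 constant-region genes listed, 7 could be tested, 1 was higher and 4 were higher with the block, with a median log2 fold change of 1.26.

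A mature B cell usually uses a single light chain, kappa or lambda. Here most cells held UMIs of both. Among cells with at least 10 light-chain constant-region UMIs, 63 of 88 in library 1 (71.6%, 61.0 to 80.7) and 71 of 84 in library 2 (84.5%, 74.99 to 91.5) had less than 90% of them from either kind. A kappa share of at least 90% was found in 23 cells (26.1%, 17.3 to 36.6) and 11 cells (13.1%, 6.72 to 22.2), and a lambda share of at least 90% in 2 and 2 cells (2.27%, 0.276 to 7.97, and 2.38%, 0.290 to 8.34). The mixed cells had medians of 17 and 25 UMIs of Igkc and 8 and 11 UMIs of the lambda regions together. Iglc1 was seen in 61.5% and 72.6% of Ms4a1 B cells but in 1.18% and 0% of neutrophil reference cells and 0% and 0.388% of stromal reference cells, whose counts measure free RNA in the droplets. Igkc was seen in 97.8% and 97.6% of Ms4a1 B cells, in 10% and 0.870% of neutrophil reference cells, and in 17.5% and 2.98% of stromal reference cells. The part of free RNA in the mixed cells was not tested. A share of 80% in place of 90% moved the mixed cells to 54.5% and 63.1%. The variable segments, which lie far from the 3′ end that the kit reads, gave too few UMIs for a call per cell, with 24 and 58 UMIs over all kappa segments.

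**Figure D2:**
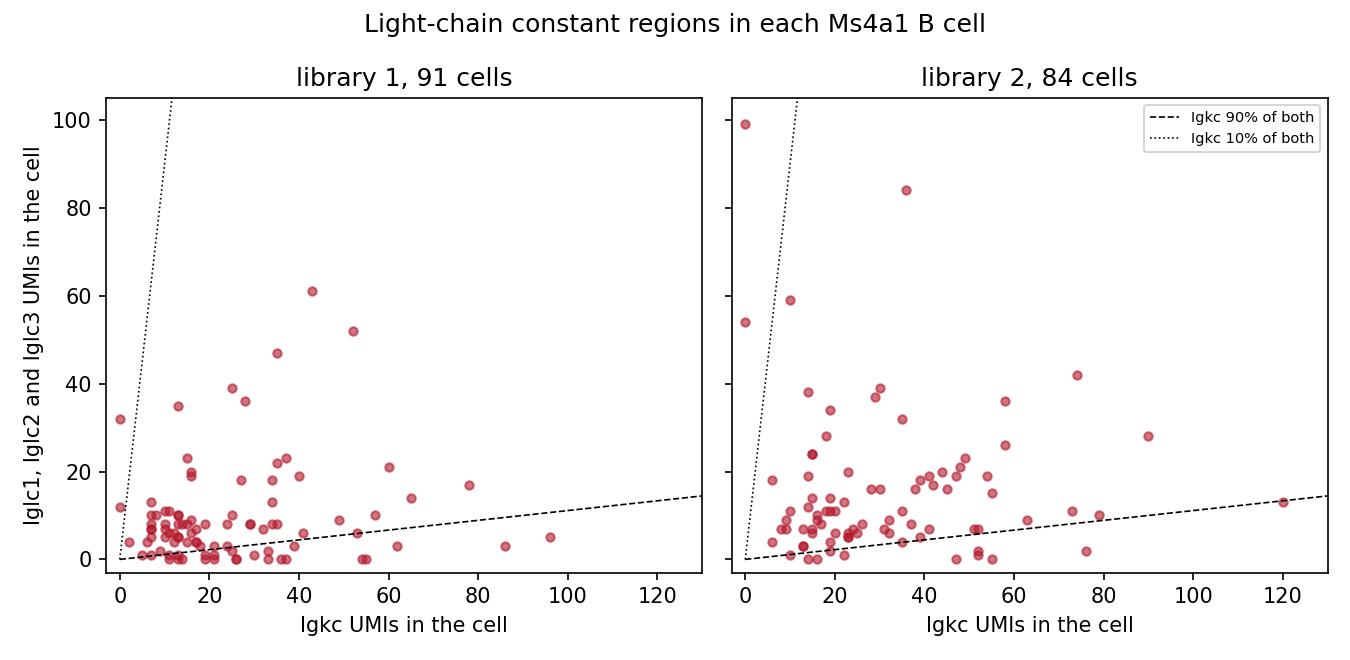
UMIs of Igkc (horizontal axis) and of Iglc1, Iglc2, and Iglc3 together (vertical axis) in each Ms4a1 B cell, with a panel for each library and lines where Igkc is 90% and 10% of both. Most cells lie between the lines, 63 of 88 in library 1 and 71 of 84 in library 2 being mixed.

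MHC class II genes encode the molecules that present peptides to helper T cells, with their chaperone Cd74, the peptide editors H2-DM and H2-O, and the master regulator Ciita. Since H2-Aa set the gate, these genes are given here as levels without a test. Cd74 was found in every Ms4a1 B cell, with 5 to 115 UMIs in library 1 (median 45) and 6 to 105 in library 2 (median 57.5). It stood at 9972 and 14352 CPM, against 490 and 530 CPM in the non-cycling Ms4a1-free cells. H2-Ab1 was at 1699 and 2545 CPM against 106 and 141 CPM, and H2-Eb1 at 1235 and 2073 CPM against 36.0 and 80.2 CPM. The editors H2-DMa (179 and 312 CPM against 15.5 and 27.3), H2-DMb2 (158 and 315 against 6.72 and 10.4), H2-Oa (87.1 and 102 against 8.78 and 14.2), and H2-Ob (188 and 279 against 65.9 and 100.6) and the regulator Ciita (91.8 and 36.1 against 4.67 and 2.73) were higher in both libraries as well. H2-DMb1 and H2-DMb2 are near-identical copies and can share reads.

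A test of this list needs cells chosen without H2-Aa. Cells with a Cd79a UMI, at least 2 Ms4a1 UMIs, no cycle gene, and any number of H2-Aa UMIs numbered 335 and 228. Of 9842 genes tested against the same Ms4a1-free cells, 17 were higher (0.173%) and 21 lower (0.213%). The class II list had a median log2 fold change of 2.73, against -0.02 for all genes, and of its 13 genes the 12 that could be tested were all higher in both libraries. Of the 12, Cd74 alone passed the threshold (log2 fold change 3.91 ± 0.38, adjusted p = 0.0478, edgeR), as did H2-Aa itself (3.08 ± 0.37, adjusted p = 0.0488). H2-Ab1 (2.87 ± 0.41, adjusted p = 0.0503), H2-DMb2 (3.84 ± 0.57, adjusted p = 0.0557), and H2-Eb1 (3.55 ± 0.55, adjusted p = 0.0593) fell just short. With the library as a block, 376 genes were higher (3.82%) and 620 lower (6.3%), and all 12 class II genes were among the higher. The count for this list ranged from 0 to 12 over the settings tried, 0 with at most 5% mitochondrial UMIs or with no filter on low counts.

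Class II promoters are known for a Y box, a CCAAT-type element, searched for here as TGATTGG. The letters were searched on both strands from 250 bases before to 50 bases after each start in the RefSeq promoters of GRCm38.p6. They occurred in 7 of the 11 promoters found for list genes and relatives, and in 2568 of all 32851 promoters (7.82%). The 11 belonged to 10 genes, of 15 looked for, and 7 of the genes held the letters. No promoter was found for H2-Ab1, Cd74, Ciita, Cd40, or Cd86. The shorter core ATTGG, contained in TGATTGG, occurred in 12289 of all promoters (37.4%). The first base of the motif lay 45 bases before the start in H2-Oa, 50 in H2-Aa, 59 in H2-Ob, 61 in H2-Eb1, 63 in H2-DMb1, 92 in H2-DMb2, and 102 in H2-Eb2. The length of the motif was chosen after the sequences had been seen, and a match describes the letters only. Below are the gate gene H2-Aa (chr17:34287774-34288073, minus strand) and H2-Eb1 (chr17:34305617-34305916, plus strand), which encode classical chains. With them are H2-DMb2 (chr17:34144999-34145298, plus strand) and H2-Oa (chr17:34092129-34092428, plus strand), which encode editor chains. All are written 5′ to 3′ with the motif in capitals.
H2-Aa: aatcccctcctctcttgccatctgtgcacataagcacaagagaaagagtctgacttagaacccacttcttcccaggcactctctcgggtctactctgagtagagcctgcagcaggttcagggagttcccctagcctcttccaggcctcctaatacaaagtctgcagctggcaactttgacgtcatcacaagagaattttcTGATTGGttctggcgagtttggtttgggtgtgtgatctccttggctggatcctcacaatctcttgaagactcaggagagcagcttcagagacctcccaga
H2-Eb1: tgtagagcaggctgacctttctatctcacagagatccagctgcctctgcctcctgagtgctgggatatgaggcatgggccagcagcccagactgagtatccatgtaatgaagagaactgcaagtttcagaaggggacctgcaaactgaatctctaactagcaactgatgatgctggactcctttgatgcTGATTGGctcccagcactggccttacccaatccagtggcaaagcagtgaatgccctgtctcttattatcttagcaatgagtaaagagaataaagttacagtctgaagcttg
H2-DMb2: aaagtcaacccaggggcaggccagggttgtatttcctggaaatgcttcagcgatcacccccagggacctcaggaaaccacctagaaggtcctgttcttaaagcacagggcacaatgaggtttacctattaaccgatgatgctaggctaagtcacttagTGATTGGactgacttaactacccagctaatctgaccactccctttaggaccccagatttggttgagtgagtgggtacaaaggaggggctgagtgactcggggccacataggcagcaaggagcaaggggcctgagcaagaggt
H2-Oa: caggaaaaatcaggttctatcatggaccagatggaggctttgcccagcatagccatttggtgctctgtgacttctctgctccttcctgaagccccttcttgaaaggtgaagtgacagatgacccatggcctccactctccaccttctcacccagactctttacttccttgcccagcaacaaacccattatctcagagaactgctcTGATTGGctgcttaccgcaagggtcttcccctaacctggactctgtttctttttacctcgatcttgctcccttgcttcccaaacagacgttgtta

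Costimulators were read beside class II. Cd86, a ligand that gives T cells their second signal, was at 47.1 and 114 CPM against 4.48 and 4.64 CPM, and Cd40, the receptor for T cell help, at 104 and 57.1 CPM against 32.1 and 21.0 CPM. In the cells chosen without H2-Aa, they were higher by 3.51 ± 0.50 (adjusted p = 0.0503, and 0.00767 with the block) and 1.80 ± 0.38 (adjusted p = 0.0984, and 0.0132 with the block).

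Survival genes gave 1 call. The BAFF receptor Tnfrsf13c, through which mature B cells receive their main survival signal, was at 718 and 312 CPM against 404 and 220 CPM (log2 fold change 0.76 ± 0.49, adjusted p = 0.590). Bcl2a1b, an antiapoptotic BCL2 relative, was at 68.2 and 69.1 CPM against 1.12 and 6.0 CPM and was the gene called of 15 (log2 fold change 4.38 ± 0.74, adjusted p = 0.0448). The call was lost with at least 3 Ms4a1 UMIs (adjusted p = 0.0554), with at least 5 Cd79a UMIs (0.0581), with no filter on low counts (0.0859), without H2-Aa in the gate (0.129), and with at most 5% mitochondrial UMIs (0.154). Without H2-Aa in the gate but with the block, it was called (adjusted p = 0.00926). It is one of a family of near-identical copies, and Bcl2a1d, at 11.8 and 42.1 CPM against 0.187 and 7.09 CPM, did not pass (adjusted p = 0.319). Rel, the NF-kB subunit c-Rel, was at 673 and 508 CPM against 218 and 188 CPM (log2 fold change 1.59 ± 0.33, adjusted p = 0.0731, and 0.0123 with the block). The list's median log2 fold change was 0.86, and 4 genes passed with the block. In the Toll-like receptor list, 4 of 8 genes could be tested, none passed, and 2 passed with the block, Cd180 (42.4 and 72.1 CPM against 9.71 and 5.18) and Ly86 (108 and 147 CPM against 32.3 and 20.5), which together form a receptor complex of B cells. Among homing and chemokine receptors, 9 of 11 could be tested and Ccr7 was the gene called, with a median log2 fold change of 0.59. The list held 2 calls with the block and 0 with no filter on low counts, with at most 5% mitochondrial UMIs, or without H2-Aa in the gate.

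Of the transcription factors of the B lineage, Pax5 and Ebf1 did not pass the test without the block. Pax5, the factor that commits cells to the lineage, was at 386 and 165 CPM against 277 and 139 CPM (log2 fold change 0.44 ± 0.52, adjusted p = 0.828), and Ebf1, which acts just before it, at 2174 and 1851 CPM against 3529 and 3460 CPM (log2 fold change -0.74 ± 0.26, adjusted p = 0.222). Of 21 factors, none was higher and Lef1 and Myb were lower, with a median log2 fold change of -0.27. Lef1, a WNT effector that supports pro-B cells, was at 30.6 and 24.0 CPM against 213 and 321 CPM (log2 fold change -3.21 ± 0.40, adjusted p = 0.0255). Without H2-Aa in the gate, Lef1 was at the threshold (adjusted p = 0.0502 without and 0.0488 with H2-Aa among the genes tested) and Myb was not called, and with the block 8 factors were lower and 3 higher in those cells. In the gate with H2-Aa, the block gave 7 lower factors and 1 higher. Lef1 also lost its call after thinning (adjusted p = 0.0602). Among the lower were Id3 (464 and 366 CPM against 992 and 1639 CPM, adjusted p = 0.0339) and Tcf3, the E protein that ID3 inhibits (162 and 123 CPM against 412 and 399 CPM, adjusted p = 0.0189), and the higher factor was Irf8 (628 and 400 CPM against 315 and 200 CPM, adjusted p = 0.0327).

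Lists for other B cell fates gave no call. For marginal zone and B-1 cells, 8 of 10 genes could be tested, with a median log2 fold change of -0.06, and 2 were higher and 1 lower with the block. For germinal center and plasma cells, 5 of 9 could be tested, with a median of -0.50. The plasma cell factor Prdm1 had 7.06 and 9.01 CPM against 6.54 and 5.46 CPM. Of the 8 immediate early genes, which respond quickly to receptor signals and to tissue digestion alike, none passed, with a median of -0.35. With the block, 2 of the 8 were higher and 1 lower. Nr4a1, a gene induced by antigen receptor signals, was at 266 and 415 CPM against 27.1 and 107 CPM (log2 fold change 2.44 ± 0.61, adjusted p = 0.120, and 0.0179 with the block), while Fos was at 40.0 and 84.1 CPM against 104 and 547 CPM (-2.30 ± 0.75, adjusted p = 0.192, and 0.0321 with the block). Library 2 was the higher for Fos in both groups.

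Outside the lists, the 10 genes with the largest increase among those called included Il4i1, A530032D15Rik, P2ry10, Gm31243, Cd274, Egr3, Rasgef1b, Cd83, and Lat2. Il4i1, a secreted amino acid oxidase, was at 127 and 132 CPM against 1.87 and 4.09 CPM (log2 fold change 5.52 ± 0.52, adjusted p = 0.0148). Cd83, a marker of activated B cells whose product keeps class II at the surface, was at 369 and 847 CPM against 17.2 and 44.7 CPM (4.38 ± 0.61, adjusted p = 0.0261). Both groups lay apart in each library.

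Egr3, a transcription factor that the receptor induces, was at 115 and 99.1 CPM against 2.99 and 5.73 CPM (log2 fold change 4.69 ± 0.49, adjusted p = 0.0148). Lat2, an adaptor of antigen receptor signaling, was at 58.8 and 102 CPM against 5.79 and 1.91 CPM (4.36 ± 0.67, adjusted p = 0.0350). Cd274, the inhibitory ligand PD-L1, was at 58.8 and 144 CPM against 2.05 and 4.64 CPM (4.99 ± 0.65, adjusted p = 0.0261), and P2ry10, a lysophospholipid receptor of lymphocytes, at 61.2 and 69.1 CPM against 2.43 and 1.09 CPM (5.17 ± 0.58, adjusted p = 0.0154). Of the 10, 3 stayed called without H2-Aa in the gate, or 10 with the block in those cells, 7 with no filter on low counts, 8 with at most 5% mitochondrial UMIs, and 10 when cells with over 2% of their UMIs from other lineages were left out of both groups. After thinning to 1000 UMIs, 9 could be tested and 7 stayed called.

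The 10 genes with the largest decrease outside the lists were Cthrc1, Lum, Rcn3, Serpinf1, Pcolce, Col5a2, Selenom, Serpinh1, Fkbp11, and Bgn, most of which encode matrix proteins or endoplasmic reticulum proteins that help to make them. Cthrc1 had 0 UMIs in Ms4a1 B cells against 63.3 and 132 CPM, at least 8.97-fold and 14.6-fold lower. Bgn, the matrix proteoglycan biglycan, was at 11.8 and 3.0 CPM against 131 and 275 CPM (log2 fold change -4.63 ± 0.65, adjusted p = 0.0261). Stromal markers were lower beside them. Col1a1 was at 63.5 and 42.1 CPM in Ms4a1 B cells against 4664 and 4703 CPM. Of the 9 stromal markers, 5 were called lower, and 7 with the block. Without the cells over 2% of other lineages, 4 of the 10 genes could still be tested and 1, Selenom, was called. Without H2-Aa in the gate, 2 of the 10 stayed called where H2-Aa was kept out of the genes tested, and 4 where it was tested. With H2-Aa tested and the block, 9 were called in those cells. In the gate with H2-Aa, 5 stayed called with no filter on low counts and 6 with at most 5% mitochondrial UMIs. After thinning, 4 could be tested and 0 were called, and with at least 5 Cd79a UMIs 4 could be tested and 1 was. Leaving out the cells over 2% removes cells by their stromal UMIs among others, so nothing is read from the stromal markers there. Over all calls, 69 of the 70 higher genes stayed called without those cells, and of the 66 lower genes 42 could be tested and 31 stayed called. All 8 pre-B genes were lower in that fit.

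**Figure D3:**
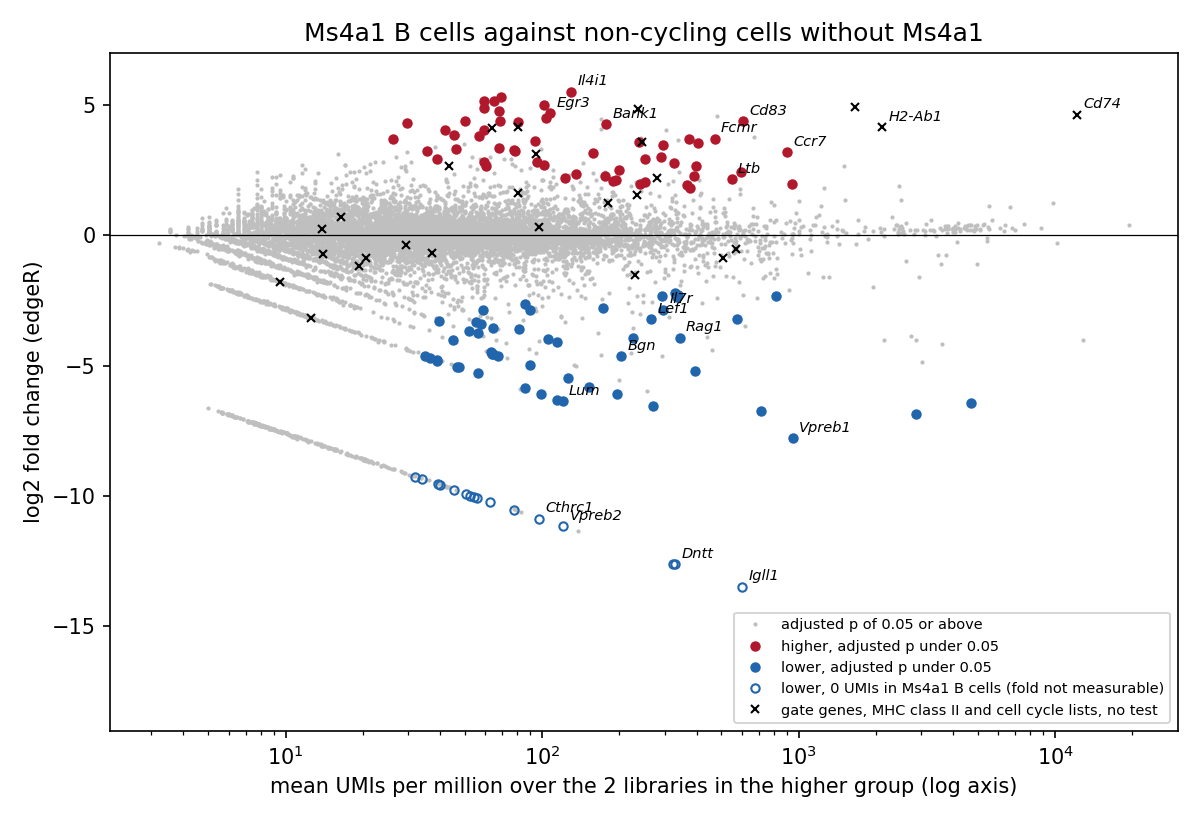
Log2 fold change of each gene tested in Ms4a1 B cells against non-cycling Ms4a1-free cells (vertical axis) by its mean CPM in the group where it is higher (horizontal axis, log scale), with genes past the threshold in red and blue, genes with 0 UMIs in Ms4a1 B cells as open circles, and genes of the lists tied to the gate as crosses, with no test. The fitted fold change of an open circle depends on the prior count and is no measurement. Ccr7, Fcmr, and Bank1 lie above and Vpreb1, Rag1, and Il7r below.

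Against all Ms4a1-free cells, cycling ones included, 238 of 10970 genes were higher (2.17%) and 267 lower (2.43%). This comparison shares its Ms4a1 B cells and part of its other cells with that above. Its called genes by list were 10 of 16 follicular genes, 6 of 16 receptor and coreceptor genes, 6 of 15 survival genes, and 3 of 9 homing genes higher, and 6 of 8 pre-B genes lower. With the block, 256 genes were higher (2.33%) and 266 lower (2.42%), and these held 206 of the 238 and 198 of the 267. The block left the follicular and receptor counts at 10 and 6 and gave 4 survival, 2 homing, and 5 pre-B genes. With at most 5% mitochondrial UMIs the counts were 2 follicular, 1 receptor, 0 survival, 0 homing, and 2 pre-B genes. In the same order, they were 6, 3, 1, 1, and 2 with no filter on low counts. After thinning they were 4, 3, 2, 2, and 3. The cell cycle list is given as values only, since the gate removed Mki67 and Top2a. Its median log2 fold change was -3.53 against all Ms4a1-free cells and -0.70 against the non-cycling ones. Tyms, an enzyme of thymidine synthesis, was at 2.35 and 0 CPM in Ms4a1 B cells, and Stmn1, a microtubule regulator, at 91.8 and 60.1 CPM against 194 and 266 CPM in non-cycling cells. Of the cells that passed the other limits, 22 of 113 in library 1 (19.5%, 12.6 to 28.0) and 4 of 88 in library 2 (4.55%, 1.25 to 11.2) held Mki67 or Top2a and were left out.

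Ms4a1 cells without H2-Aa were compared with the Ms4a1 B cells as well. Of the non-cycling Ms4a1 cells, 222 of 335 (66.3%, 60.9 to 71.3) and 124 of 228 (54.4%, 47.7 to 61.0) had 0 H2-Aa UMIs. Their levels included Fcmr at 255 and 581 CPM, Bank1 at 113 and 148 CPM, and Ptpn6 at 403 and 583 CPM. Of 5272 genes tested between these groups, a comparison added after the data had been seen, 1 was higher in Ms4a1 B cells (0.019%), H2-Ab1, and 0 were lower (0.0%), and with the block 91 were higher (1.73%) and 65 lower (1.23%). The class II list held 9 of these 91, and nothing is read from them.

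With the block, 4 of the 5 pre-B genes that could be tested and 4 of 6 immature genes were lower in Ms4a1 B cells than in those cells, and without it 0 and 0 were. The erythroid markers summed to 2261 and 499 CPM against 46614 and 20041 CPM in those cells, where 62.4% and 97.3% of them lay in a single cell, and 4 of 5 tested were lower with the block. Of the neutrophil markers, which summed to 10412 and 75.1 CPM against 8073 and 82.3 CPM, 6 could be tested, and 3 were higher and 1 lower with the block. The stromal markers summed to 525 and 96.1 CPM against 417 and 1227 CPM, and 2 of 3 tested were lower with the block. Of the immediate early genes, 3 of 7 tested were higher with the block. Without the block, none of these markers and immediate early genes was called. The part of these markers in the result was not tested. For the genes that follow, the fold change and its SE are of the fit without the block. Rag1 was at 28.2 and 15.02 CPM against 108 and 77.6 CPM (log2 fold change -2.05 ± 0.46, adjusted p = 3.61e-05 with the block and 0.863 without), and Vpreb3 at 1094 and 805 CPM against 1845 and 1622 CPM (-0.84 ± 0.29, adjusted p = 5.92e-07 and 0.999). Ccr7 was at 633 and 1172 CPM against 343 and 715 CPM (0.82 ± 0.44, adjusted p = 7.90e-06 and 0.999), and P2ry10 at 61.2 and 69.1 CPM against 9.48 and 18.8 CPM (2.29 ± 0.50, adjusted p = 7.13e-05 and 0.863). Library 2 was the higher for Ccr7 in both groups.

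Cells just inside and just outside the limits are given as a description. Cells with 2 Ms4a1 UMIs and at least 2 H2-Aa UMIs, 11 and 7 in the libraries, had 487 and 1149 CPM of Ccr7, and the 12 and 13 cells with 1 Ms4a1 UMI had 741 and 1878 CPM. For H2-Aa, the 11 and 11 cells with 2 UMIs had 5414 and 15495 CPM of Cd74, and the 22 and 20 cells with 1 UMI had 5848 and 8623 CPM. The cells with 0 H2-Aa UMIs had 2914 and 6005 CPM.

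Counted cell by cell, Ccr7 was seen in 80 of 91 Ms4a1 B cells (87.9%, 79.4 to 93.8) and in 77 of 84 (91.7%, 83.6 to 96.6). The expected shares were 48.2% and 63.9% if each cell had only 1000 UMIs. In the non-cycling Ms4a1-free cells the shares were 33.8% and 23.3%, and in stromal reference cells, which should lack the gene, they were 1.42% and 0.129% at median depths of 15710 and 10043 UMIs. Fcmr was seen in 63.7% (53.0 to 73.6) and 76.2% (65.7 to 84.8) of Ms4a1 B cells, or 29.6% and 38.7% at 1000 UMIs, and in 0 of 211 and 1 of 773 stromal reference cells. A count of 0 in 211 cells allows a share of cells with a UMI of up to 1.42% by a limit of 3 counts. Both genes were found together in 53 and 58 cells and neither in 6 and 1 cells.

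Fcer2a, a marker of the final stage, and Cd93 and Rag1, of the earlier stages, were each found in a minority. Other stage markers were seen more often, Ighd in 52.7% and 21.4% and Vpreb3 in 82.4% and 81.0% of the Ms4a1 B cells. Fcer2a was seen in 17.6% (10.4 to 27.0) and 8.33% (3.42 to 16.4) of the cells, or 4.50% and 2.64% at 1000 UMIs. Cd93 was seen in 16.5% (9.53 to 25.7) and 4.76% (1.31 to 11.7), or 4.31% and 1.30% at 1000 UMIs. In the reference cells of library 1, it was seen in 15.6% (13.3 to 18.1) of neutrophils at a median of 8080 UMIs and in 5.69% (2.97 to 9.72) of stromal cells at 15710 UMIs. In library 2, the shares were 1.74% at 8816 UMIs and 0.647% at 10043 UMIs. In both libraries, the neutrophil share lay within the interval of the Ms4a1 B cells and the stromal share below it. Neutrophils may carry Cd93 transcripts of their own, which was not tested, so their share is not read as free RNA. Rag1 was seen in 9.89% (4.62 to 17.9) and 3.57% (0.743 to 10.1), against 63.7% and 61.5% of the non-cycling Ms4a1-free cells. Cd93 and Fcer2a were found together in 3 of 91 and 0 of 84 cells, and 63 and 73 cells had no UMI of either. At this depth a cell without a UMI of so rare a transcript may still express it.

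The libraries differed in Ighd and Cd83, chosen after their values were seen. Ighd was seen in 52.7% (42.0 to 63.3) of the Ms4a1 B cells of library 1 and 21.4% (13.2 to 31.7) of those of library 2, or 18.6% and 7.39% at 1000 UMIs. Cd83 went the other way with 60.4% (49.6 to 70.5) and 84.5% (74.99 to 91.5), or 25.6% and 49.1%. In both genes the counting intervals of the libraries did not overlap. The directions were the same in Ms4a1 cells without H2-Aa, at 26.1% and 12.9% for Ighd and 33.8% and 62.1% for Cd83. In non-cycling Ms4a1-free cells the shares were 29.1% and 11.3% for Ighd and 5.54% and 8.41% for Cd83. In stromal reference cells Cd83 went the other way, with 9.95% and 1.42%. With 1 sum per library, no test of this difference is possible. Mitochondrial shares and total depth differ between the libraries as well, and their part in it was not tested.

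**Figure D4:**
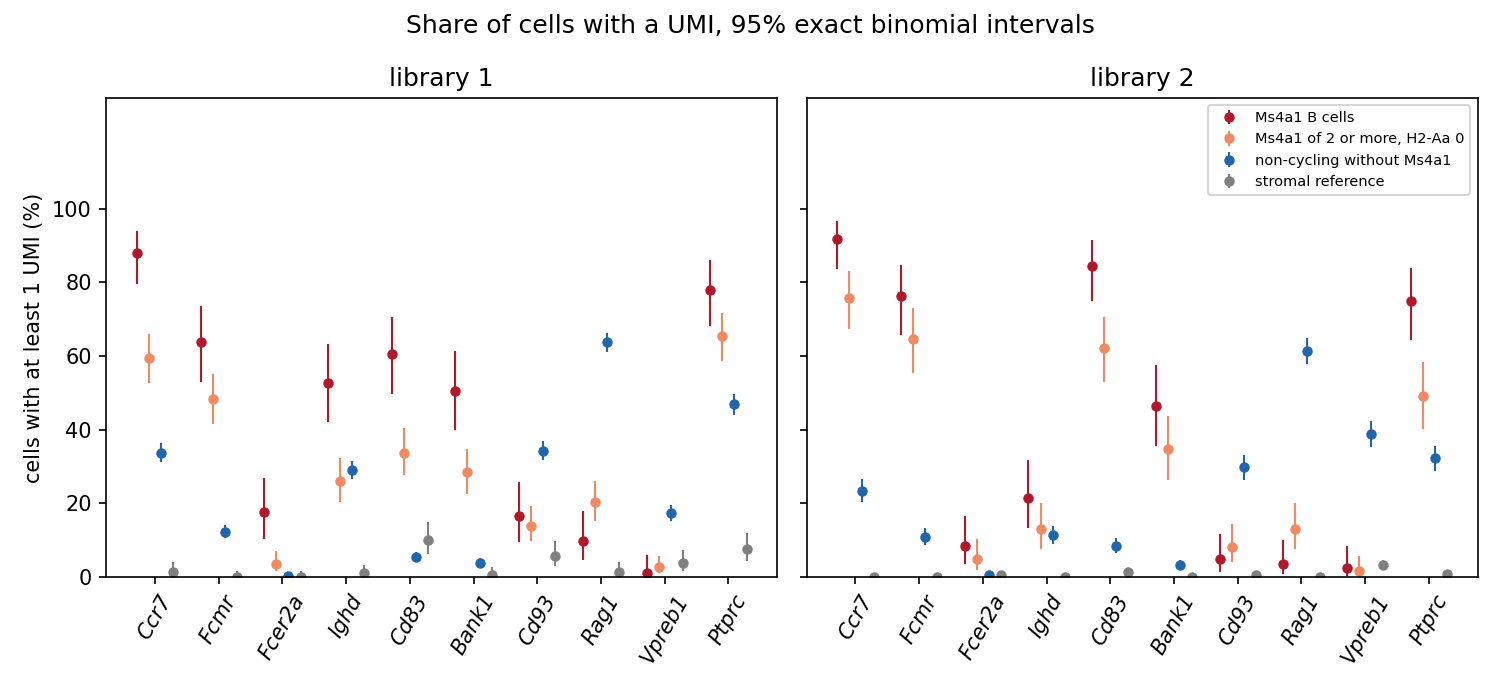
Share of cells with at least 1 UMI of each gene (percent) in Ms4a1 B cells and in the comparison groups, with a panel for each library and bars for 95% exact binomial intervals. Ccr7 was seen in 87.9% and 91.7% of Ms4a1 B cells, and Ighd in 52.7% in library 1 and 21.4% in library 2.

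The labels place these cells in a sort on CD45, yet Ptprc, the gene that encodes CD45, was seen in 71 of 91 (78.0%, 68.1 to 86.0) and 63 of 84 (75%, 64.4 to 83.8) Ms4a1 B cells. The shares were 7.58% and 0.776% in stromal reference cells and 94.8% and 87.8% in neutrophil reference cells. Its level was 471 and 358 CPM against 206 and 82.4 CPM in the non-cycling Ms4a1-free cells (log2 fold change 1.55 ± 0.50, adjusted p = 0.188, and 0.0388 with the block). Pecam1, which encodes CD31, was at 35.3 and 24.0 CPM against 65.4 and 33.5 CPM (-0.70 ± 0.52, adjusted p = 0.654).

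Markers of other cell types were not spread evenly over the Ms4a1 B cells. Over all lists of other lineages they took 1.39% and 0.0772% of the UMIs of Ms4a1 B cells, against 6.77% and 2.80% in the non-cycling Ms4a1-free cells. No doublet caller was run, and 4 and 0 Ms4a1 B cells had over 2% of such UMIs. The 8 neutrophil markers summed to 10412 and 75.1 CPM, led by S100a9, and 76.5% of them in library 1 lay in a single cell. The 8 erythroid markers summed to 2261 and 499 CPM, against 33397 and 11085 CPM, led by Hbb-bs. Car1, Car2, and Alas2 were among the markers at 0 in library 2. Of the neutrophil markers, 7 of 8 could be tested and none passed (median log2 fold change -0.999), and of the erythroid markers none of 8 passed (-3.92). With the block, 2 neutrophil and 5 erythroid markers were lower.

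The 9 stromal markers summed to 525 and 96.1 CPM against 12468 and 15824 CPM. Dcn and Prrx1 were at 0 in both libraries, and a single cell of library 1 held 75.3% of its stromal UMIs, Col2a1 being the most abundant. The 6 monocyte markers summed to 649 and 9.01 CPM, mostly Lyz2 and mostly in a single cell of library 1 (85.1%), and 3 could be tested with none called. The 7 dendritic cell markers, whose cells also carry class II, summed to 21.2 and 0 CPM, with Itgax, Xcr1, Clec9a, Batf3, and Zbtb46 at 0 in both libraries. The 8 T and NK cell markers had 0 UMIs in library 1 and 23 in library 2, led by Cd3g and all in 1 cell. The 4 endothelial markers summed to 37.6 and 24.0 CPM, mostly Pecam1, with Cdh5 and Emcn at 0 in both libraries. The part of such cells in the differences above was tested only by leaving out the cells over 2%.

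**Figure D5:**
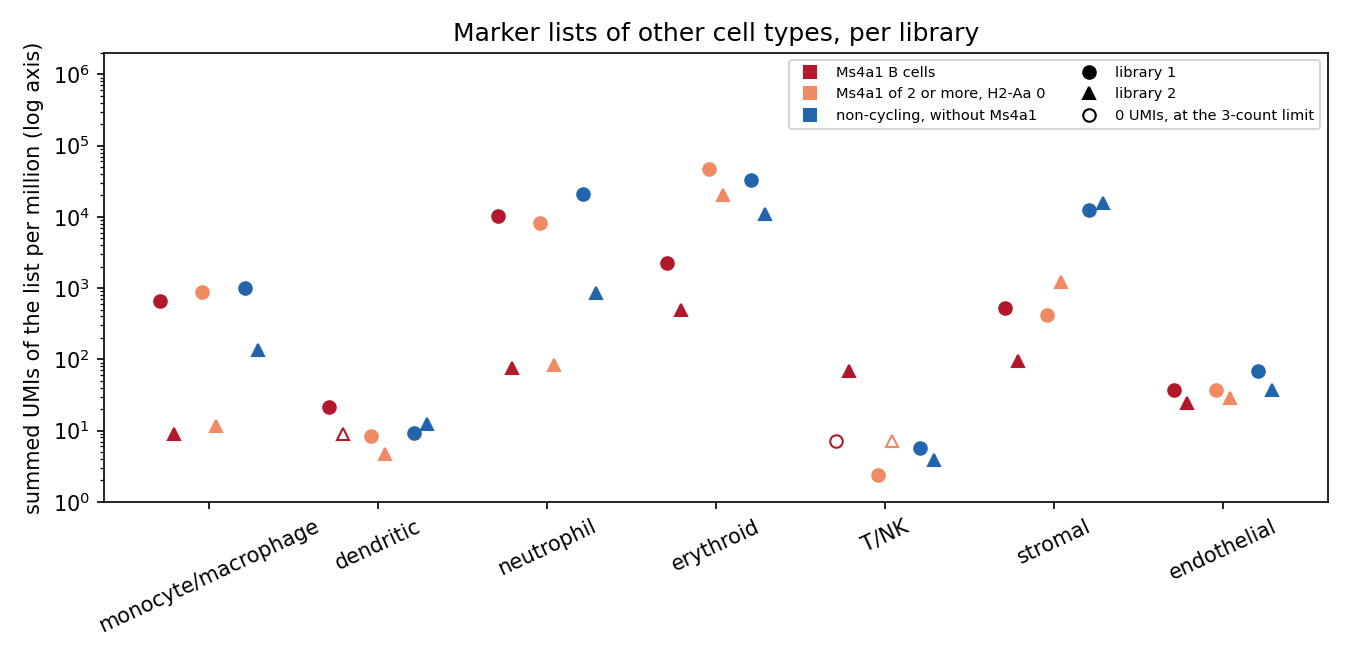
Summed CPM of the marker lists of other cell types (log axis) in Ms4a1 B cells and the comparison groups, with circles for library 1, triangles for library 2, and open symbols at the limit of 3 counts where no UMI was found. The neutrophil list reached 10412 CPM in Ms4a1 B cells of library 1 and 75.1 CPM in library 2, and the stromal list 525 and 96.1 CPM.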

How the data were processed

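The deposited files hold raw UMI counts per gene and barcode, made by the authors from 10x Chromium 3′ libraries (v3.1) and not normalized. Cell Ranger 6.1.2 and mm10 are named in the submitters' processing notes. Barcodes with at least 500 genes, at least 500 UMIs, and at most 10% mitochondrial UMIs were kept, and no doublet caller was run. The counts of a cell group were summed per library and compared with edgeR 4.0.16 in R 4.3.3 (filterByExpr, TMM normalization, glmQLFit with bias adjustment, quasi-likelihood test, Benjamini-Hochberg adjustment, threshold 0.05). The gate genes were left out of the fits, except H2-Aa in the comparison of cells chosen without it. With 2 libraries, precision is limited by the spread between them.

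The members, the gene lists, and the tests were chosen with earlier results of these data known. Named genes were every gene of the lists and, outside them, the 10 genes with the largest and the 10 with the smallest log2 fold change against the non-cycling Ms4a1-free cells among those called, with at least 50 CPM in both libraries of the higher group and 1 direction in both libraries, leaving out immunoglobulin variable segments and the mitochondrial genome. A few genes that this rule names are not reported here. The reference cells for free RNA were neutrophils with at least 50 S100a8 UMIs and stromal cells with at least 3 UMIs each of Col1a2 and Sparc, both without Cd79a.

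The sums of 1 library share its cells, so the library number pairs them. The deviations of paired sums correlated at 0.25 over 10975 genes, 0.38 over 9348, and 0.57 over 9844 for the comparisons with all Ms4a1-free cells, with the non-cycling ones, and without H2-Aa in the gate. The fit with this block is given beside many of the list counts and named calls that it changes. Tested on simulated data, 4-fold changes were recovered for 11.2%, 19.8%, and 46.2% of changed genes in those comparisons (10545, 9030, and 9557 genes), with 0%, 0%, and 4.35% of calls false. The counts were drawn with the same spread setting for all genes and with no effect shared within a library. H2-Aa was left out of every simulated fit. Only the fit without the block was run on them, so they give no rate of false calls for the block. Alternatives were DESeq2 1.42.0 (size factors and Wald test), edgeR's legacy quasi-likelihood test, no filter on low counts, and cells thinned to 1000 UMIs. Others were at most 5% mitochondrial UMIs, at least 3 Ms4a1 UMIs, a gate without H2-Aa, and each library alone. Added after the data had been seen were at least 5 Cd79a UMIs and leaving out cells with over 2% other-lineage UMIs. The legacy test gave 85 higher and 83 lower genes against the non-cycling Ms4a1-free cells, with 8 pre-B genes lower.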

Additional observations from a re-analysis of the deposited data

Results flagged for a closer look

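The count tables hold rows for fluorescent reporters beside the mouse genes, although the labels describe wild-type mice. The reporter tdTomato gave 17 UMIs in 14 of the 91 Ms4a1 B cells of library 1 and 28 UMIs in 20 of the 84 of library 2, or 40.0 and 84.1 CPM, above the limits of 7.06 and 9.01 CPM that 3 counts set. Among all kept cells it gave 1482 UMIs in 1027 of 6276 cells and 4627 UMIs in 846 of 2893 cells. EGFP gave 0 UMIs in the Ms4a1 B cells of either library. Among all kept cells it gave 0 UMIs in library 1 and 6837 UMIs in 170 cells in library 2. The source of these counts was not tested.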

How the results depend on the processing

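Against all Ms4a1-free cells, the 238 genes higher and 267 lower became 516 and 545 with the DESeq2 Wald test, 83 and 79 with no filter on low counts, 60 and 45 with cells thinned to 1000 UMIs, and 33 and 55 with at most 5% mitochondrial UMIs, a limit that left 25 of the 91 Ms4a1 B cells of library 1. Against the non-cycling ones, the 70 higher and 66 lower became 186 and 226 with the replicate block, 160 and 186 with the DESeq2 Wald test, 22 and 16 with no filter, 38 and 22 after thinning, 23 and 33 with at most 5% mitochondrial UMIs, and 8 and 12 without H2-Aa in the gate. The count of higher genes was 113 without cells over 2% other-lineage UMIs. The count of lower genes was 38 with at least 3 Ms4a1 UMIs and 43 with at least 5 Cd79a UMIs. For cells chosen without H2-Aa, the 17 higher and 21 lower became 376 and 620 with the block, 29 and 35 with DESeq2 size factors, 152 and 250 with the DESeq2 Wald test, 0 and 1 with no filter, 38 and 32 after thinning, 2 and 8 with at most 5% mitochondrial UMIs, and 58 and 43 without cells over 2% other-lineage UMIs. The higher count was 36 with at least 5 Cd79a UMIs. Where no filter gave 0, edgeR had 1734 genes at an unadjusted p under 0.05 in either direction. The class II genes called higher, 1 in the fit reported, numbered 12 with the block, 2 with size factors, 10 with the Wald test, 0 with no filter, 6 after thinning, 0 with at most 5% mitochondrial UMIs, 5 without cells over 2%, and 2 with at least 5 Cd79a UMIs. Against Ms4a1 cells without H2-Aa, the block gave 91 and 65. With a share of 80%, kappa cells were 43.2% and 33.3% and mixed cells 54.5% and 63.1%. The causes were not tested.

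Of 45 genes whose fold change against the non-cycling cells was followed, 33 were called. Leaving H2-Aa out of the gate ended 27 of these calls and no filter on low counts ended 15, among them Ccr7, Ltb, Ptpn6, Cd22, Il7r, Cd83, Lat2, Lum, Pcolce, Serpinh1, and Bgn. At most 5% mitochondrial UMIs ended 13 (Ccr7, Ltb, Ptpn6, Cd22, Bcl2a1b, Il7r, Iglc1, Cd83, Lat2, Rcn3, Col5a2, Serpinh1, and Bgn), thinning ended 8 of those calls that could still be tested (37 of the 45 genes could), and the block ended 0. Against all Ms4a1-free cells, the block kept 206 of 238 and 198 of 267 calls. No direction reversed. With 1 library alone, no test is possible and the fold change is a value only, 3.84 and 2.37 for Ccr7 without library 1 and without library 2. Against the non-cycling cells, the fold change counted as moved in 21 genes and as the same in 21 without library 1. Without library 2, it counted as moved in 18 and as the same in 24. An exclusion of cells with at least 2 UMIs of another lineage left 0 Ms4a1 B cells in library 1 and was not run.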
